A study of Mus musculus with 14 samples.

Results

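Ch25h, Cyp27a1, Cyp7b1, Hsd3b7 and Gpr183, the genes that make, modify, clear or sense hydroxylated cholesterol, were followed in microglia, macrophages that reside in the brain. They are 5 of the 19938 genes measured, each read by 1 array row that carries its symbol alone (rows 10467136, 10347481, 10497381, 10557782 and 10422496 in the same order). Ch25h was chosen by its measured values, for its large rise after ischaemia in these arrays, so that change is described here without a test. The other 4 were picked as its neighbours in the pathway.

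Microglia were sorted from the operated side of the cortex of male C57BL/6J mice, 12 to 14 weeks old, under isoflurane for the operation. Wild-type mice had either 15 min of middle cerebral artery occlusion and 72 h of reperfusion (I/R, 4 arrays lettered A to D) or a sham operation (4 arrays, A to D). Mice labelled TLR4-/-, without Toll-like receptor 4, had the same I/R (3 arrays, B, C and D) or the sham operation (3 arrays, A, B and D). The sources used here do not name the markers of the sort, the cells that lack Tlr4 or the construction of the allele. No label states that each array held a separate animal, so the spread that p-values rest on may be partly technical.

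Oxysterols are oxidised forms of cholesterol, among them molecules with added hydroxyl groups. Ch25h encodes a cholesterol hydroxylase that macrophages switch on in response to interferons and Toll-like receptor ligands, and its product holds back cholesterol synthesis by retaining the SREBP transcription factors and activates the LXR nuclear receptors. Cyp7b1 adds a further hydroxyl group, which turns the product of Ch25h into the main ligand of Gpr183 (EBI2), a G protein-coupled receptor that guides the migration of B cells, dendritic cells and T cells. Hsd3b7 converts that ligand into a form that the receptor no longer binds, and Cyp27a1 is the mitochondrial enzyme that starts a parallel route by hydroxylating the side chain of cholesterol.

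The promoters of Ch25h and Gpr183 are shown because one is the gene whose signal rose most among the 5 and the other encodes the receptor at the end of the pathway. That of Cxcl10, an interferon-induced chemokine gene, is shown because its signal followed that of Ch25h most closely over the arrays, as described further on. Each run holds the 250 bases before the RefSeq start site on build GRCm38.p6, read 5′ to 3′ on the gene's strand, and capitals mark matches to the short motifs named after them. Ch25h lies at chr19:34475149-34475398 on the minus strand, Gpr183 at chr14:121965194-121965443 on the minus strand and Cxcl10 at chr5:92348890-92349139 on the minus strand.
Ch25h: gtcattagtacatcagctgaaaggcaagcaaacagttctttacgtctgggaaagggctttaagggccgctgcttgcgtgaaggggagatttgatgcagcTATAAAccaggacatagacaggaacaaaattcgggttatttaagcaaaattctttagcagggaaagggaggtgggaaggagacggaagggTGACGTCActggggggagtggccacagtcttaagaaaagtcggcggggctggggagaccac
Gpr183: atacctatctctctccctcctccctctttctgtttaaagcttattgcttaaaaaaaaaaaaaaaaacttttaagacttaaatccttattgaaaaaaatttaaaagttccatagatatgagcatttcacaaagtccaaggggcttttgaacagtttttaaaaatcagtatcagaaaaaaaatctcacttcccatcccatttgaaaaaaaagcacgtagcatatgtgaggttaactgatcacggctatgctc
Cxcl10: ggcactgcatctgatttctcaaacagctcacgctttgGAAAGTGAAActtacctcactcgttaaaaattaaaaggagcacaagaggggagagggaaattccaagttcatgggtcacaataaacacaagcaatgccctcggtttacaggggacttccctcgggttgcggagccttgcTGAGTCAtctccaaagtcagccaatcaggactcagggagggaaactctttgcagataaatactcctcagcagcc

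The motifs, searched on both strands, were the interferon-stimulated response element (ISRE, GAAA and a further GAAA with any 2 bases between), the cAMP response element that CREB and ATF proteins bind (CRE, TGACGTCA), the AP-1 site (TGANTCA) and the TATA box (TATAAA). The Ch25h window held TGACGTCA, starting 61 bases before the start site, and TATAAA, starting 151 bases before it. The CRE letters stood in 1.55% of the 32851 windows of this length in the table, and the TATA letters in 12.4%. The Cxcl10 window held an ISRE (GAAAGTGAAA, 213 bases before the start), whose letters stood in 2.98% of windows, and an AP-1 site (TGAGTCA, 74 bases before it), found in 6.75%. The Gpr183 window held none of these motifs. These matches are letters in a window, not shown binding sites.

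The arrays measured microglia by their markers. All 11 microglial markers with a row lay above background in every group, and their list mean was between 10.81 and 11.27 on the log2 scale on all 14 arrays. Background was taken as the 95th percentile of the olfactory receptor genes, 4.73. Wild-type sham array C and TLR4-/- I/R array D each had a higher correlation with every array of the other genotype after the same surgery than with any of their own group. Tlr4 was still read in the mice labelled TLR4-/-, with log2 values of 7.62 to 8.47 against 8.14 to 8.92 in wild type. Because the deleted part and the probes are not known here, the genotype labels could not be checked on this row.

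Ch25h went from background to a clear signal after I/R in both genotypes. On the wild-type sham arrays A to D its log2 signal was 3.73, 3.71, 3.34 and 3.69, and on the wild-type I/R arrays A to D it was 8.39, 7.75, 8.51 and 8.93. On the TLR4-/- sham arrays A, B and D it was 3.47, 4.34 and 3.28, and on the TLR4-/- I/R arrays B, C and D it was 7.90, 8.35 and 8.10. All 7 sham arrays lay below the background level and all 7 I/R arrays far above it, with no value between 4.34 and 7.75.

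The group means of Ch25h were 3.62 ± 0.18 (SD, n = 4) and 8.39 ± 0.49 (SD, n = 4) in wild type, a log2 difference of 4.78 (SE 0.23). In TLR4-/- they were 3.70 ± 0.56 (SD, n = 3) and 8.12 ± 0.22 (SD, n = 3), a difference of 4.42 (SE 0.27). Since the sham signal could not be told from background, these fitted differences have no measured size, and the fold change is given as a bound. With the sham arrays set to the background level, the mean of Ch25h was at least 12.7-fold higher after I/R in wild type and at least 10.5-fold higher in TLR4-/-. These bounds allow for the unknown sham level but not for the spread between the I/R arrays. Without wild-type sham array C the difference was 4.68, and without TLR4-/- I/R array D it was 4.43.

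The genotypes were then compared, which asks what TLR4, itself an inducer of Ch25h in macrophages, contributes. For Ch25h only the I/R groups can be compared, since both sham groups were at background and the rises are known only as bounds. After I/R, TLR4-/- minus wild type was -0.27 (95% interval -0.81 to 0.26, limma adjusted p = 0.758), which did not pass. The ranges of the I/R groups overlapped, with the TLR4-/- arrays inside the range of the wild-type arrays. The interval leaves room for a signal after I/R in TLR4-/- that is lower by 0.81 or higher by 0.26 log2 units.

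**Figure D1:**
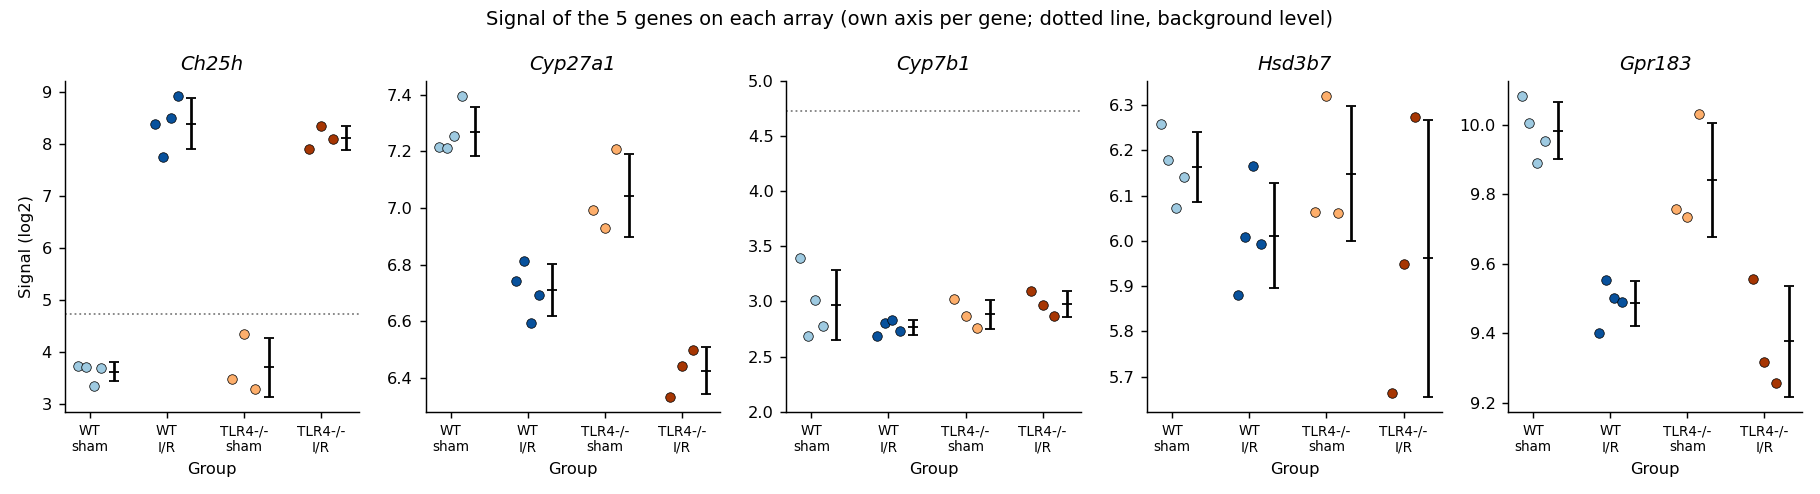
Log2 signal of Ch25h, Cyp27a1, Cyp7b1, Hsd3b7 and Gpr183 on each of the 14 arrays, by group, with 1 point per array, bars for the mean ± SD, an own axis per gene and a dotted line at the background level of 4.73 where it falls in the panel. Ch25h lies below the line on all sham arrays and at 7.75 or above on all I/R arrays, Cyp27a1 and Gpr183 are lower after I/R, and Cyp7b1 stays below the line throughout.

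Gpr183, the receptor, moved the opposite way from Ch25h and by far less. Its log2 signal on the wild-type sham arrays A to D was 10.08, 10.00, 9.89 and 9.95, and on the wild-type I/R arrays A to D it was 9.40, 9.55, 9.50 and 9.49. It was 9.76, 9.73 and 10.03 on the TLR4-/- sham arrays A, B and D and 9.56, 9.32 and 9.26 on the TLR4-/- I/R arrays B, C and D. Every sham array was above every I/R array, whichever the genotype, and the receptor stayed well above background on all 14. How many other genes separate in this way was not counted.

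In wild type Gpr183 fell from 9.98 ± 0.08 (SD, n = 4) to 9.49 ± 0.06 (SD, n = 4), a log2 difference of -0.50 (SE 0.10, limma adjusted p = 0.00460), which is 1.41-fold lower and larger than the spread between arrays. In TLR4-/- it fell from 9.84 ± 0.16 (SD, n = 3) to 9.38 ± 0.16 (SD, n = 3), a difference of -0.46 (SE 0.12, limma adjusted p = 0.0228). The call in TLR4-/- rests on few arrays: it was lost when I/R array C (adjusted p = 0.0855), I/R array D (0.0856) or sham array D (0.107) was left out, and also with the model limited to the compared groups (0.0922) or with arrays centred on their medians (0.0674). The fall was of similar size in both genotypes, the difference between the changes being -0.03 (95% interval -0.37 to 0.30, limma adjusted p = 1.000). TLR4-/- minus wild type was -0.14 after sham (95% interval -0.38 to 0.09, limma adjusted p = 0.940) and -0.11 after I/R (95% interval -0.35 to 0.13, limma adjusted p = 0.783).

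Cyp27a1, the enzyme of the parallel route, fell as well, and its call held in both genotypes. Its log2 signal was 7.22, 7.21, 7.26 and 7.40 on the wild-type sham arrays A to D and 6.74, 6.81, 6.59 and 6.69 on the wild-type I/R arrays A to D. It was 6.99, 6.93 and 7.21 on the TLR4-/- sham arrays A, B and D and 6.33, 6.44 and 6.50 on the TLR4-/- I/R arrays B, C and D. From the lowest to the highest the groups stood in the order TLR4-/- I/R, wild-type I/R, TLR4-/- sham and wild-type sham. Their ranges did not overlap, though the sham groups met at 7.21. Here too, the share of all genes with such separation was not counted.

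The fall of Cyp27a1 in wild type was from 7.27 ± 0.09 (SD, n = 4) to 6.71 ± 0.09 (SD, n = 4), a log2 difference of -0.56 (SE 0.10, limma adjusted p = 0.00119), or 1.47-fold lower. In TLR4-/- it was from 7.04 ± 0.15 (SD, n = 3) to 6.43 ± 0.08 (SD, n = 3), a difference of -0.62 (SE 0.11, limma adjusted p = 0.00217), or 1.54-fold lower. Under every alternative run, the adjusted p was at most 0.00686 in wild type and 0.0190 in TLR4-/-. The changes differed by 0.06 between the genotypes (95% interval -0.26 to 0.38, limma adjusted p = 1.000). TLR4-/- minus wild type for Cyp27a1 was -0.23 after sham (95% interval -0.45 to 0.00, limma adjusted p = 0.920) and -0.29 after I/R (95% interval -0.51 to -0.06, limma adjusted p = 0.526), neither of which passed over all genes. Of all genes, limma called 0.00502% between the genotypes after sham (1 gene, lower) and 0.0201% after I/R (0.01% higher and 0.01% lower).

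The steps between, from the product of Ch25h to the ligand and away from it, gave no called change. Cyp7b1, which would complete the ligand, was not above background on any array: its log2 signal ran from 2.69 to 3.40 over the 14, so no fold change is given. This row therefore gives only a bound on Cyp7b1 in these cells, and a change below the background level would not have been seen.

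Hsd3b7, which ends the signal, was read above background on all 14 arrays, at 5.66 to 6.32 on the log2 scale. In wild type it went from 6.16 ± 0.08 (SD, n = 4) to 6.01 ± 0.12 (SD, n = 4), a difference of -0.15 (95% interval -0.41 to 0.11, limma adjusted p = 0.517). In TLR4-/- it went from 6.15 ± 0.15 (SD, n = 3) to 5.96 ± 0.31 (SD, n = 3), a difference of -0.19 (95% interval -0.49 to 0.12, limma adjusted p = 0.536). The ranges of all 4 groups overlapped in turn, and the widest was that of the TLR4-/- I/R arrays, from 5.66 on array B to 6.27 on array D.

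Of Cyp27a1, Gpr183 and Hsd3b7, the 3 genes above background in all groups, 2 were called after I/R, both lower, in wild type and again in TLR4-/-. Without wild-type sham array C both were still called in wild type (Gpr183 -0.53, limma adjusted p = 0.00702, and Cyp27a1 -0.56, limma adjusted p = 0.00331). Without TLR4-/- I/R array D only Cyp27a1 was called in TLR4-/- (-0.65, limma adjusted p = 0.00518, against -0.40 and 0.0856 for Gpr183). Of all genes limma called 9.78% in wild type (6.15% higher and 3.63% lower) and 8.17% in TLR4-/- (5.04% higher and 3.13% lower). With arrays centred on their medians, the share of higher genes among the called rose from 62.9% to 76.8% in wild type, while Gpr183 and Cyp27a1 were still called lower there. For the difference between the changes, 0 of these 3 genes and 0 of all 19938 genes (0%) were called by limma. With array weights and with trend and robust settings the count was again 0. An unadjusted p under 0.05 was found for 762 genes, a share below the 0.05 that would pass on average without any difference.

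**Figure D2:**
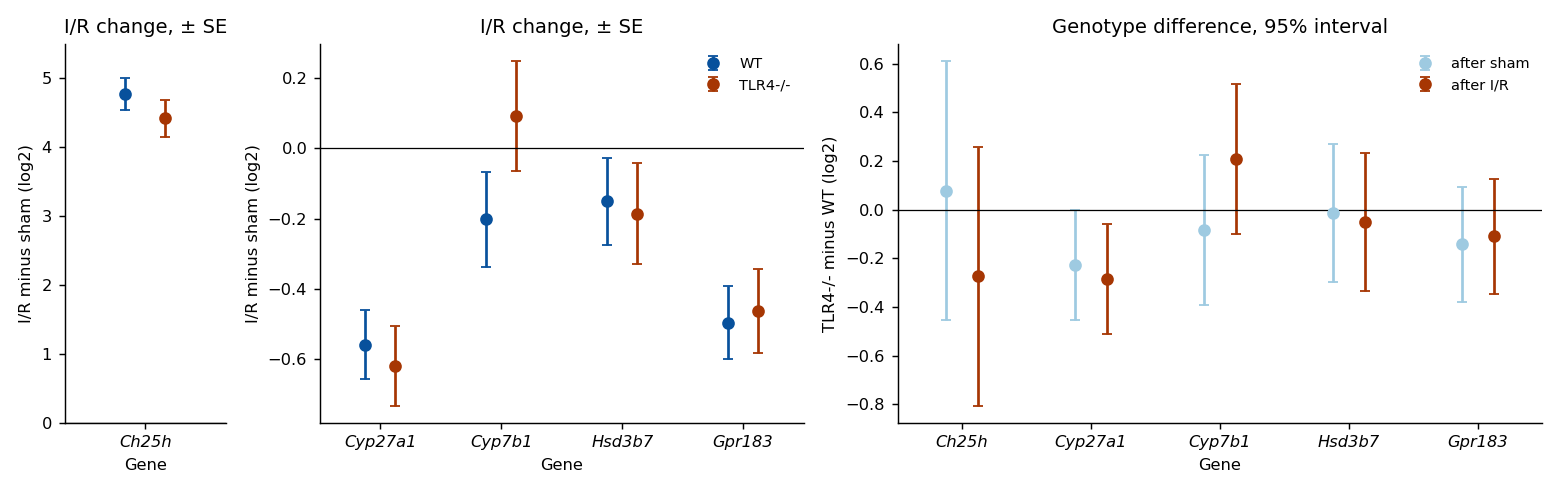
Left and middle, log2 difference of I/R minus sham with its SE in wild type (blue) and TLR4-/- (brown), for Ch25h on an axis from 0 and for the other 4 genes; right, TLR4-/- minus wild type after sham and after I/R with 95% intervals. The fitted differences of Ch25h were 4.78 and 4.42, against sham signals at background. Only a rise of its group mean of at least 3.66 and 3.39 is supported, with no allowance for the spread between arrays. Its interval after sham compares background with background. Gpr183 and Cyp27a1 lie between -0.46 and -0.62 in both genotypes, and of the genotype intervals only those of Cyp27a1 end at or below 0.

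Likeness to each gene was measured as the root mean square difference between log2 values over the 14 arrays, with each gene set to a mean of 0. The 6 genes nearest to Ch25h, whose own values spread by 2.34 about their mean, were Cxcl10 (0.52), the inhibitory receptor gene Cd72 (0.54), the spindle checkpoint kinase gene Bub1 (0.57), the fibronectin gene Fn1 (0.59), Birc5, which encodes survivin (0.64), and the topoisomerase gene Top2a (0.68). All are genes of very large rises, which the choice of Ch25h for its rise favours. Unlike Ch25h, Cxcl10 had values in TLR4-/- after I/R (10.93 to 11.08) that all lay above those of wild type after I/R (9.82 to 10.77). Within the wild-type I/R group both were lowest on array B and highest on array D.

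**Figure D3:**
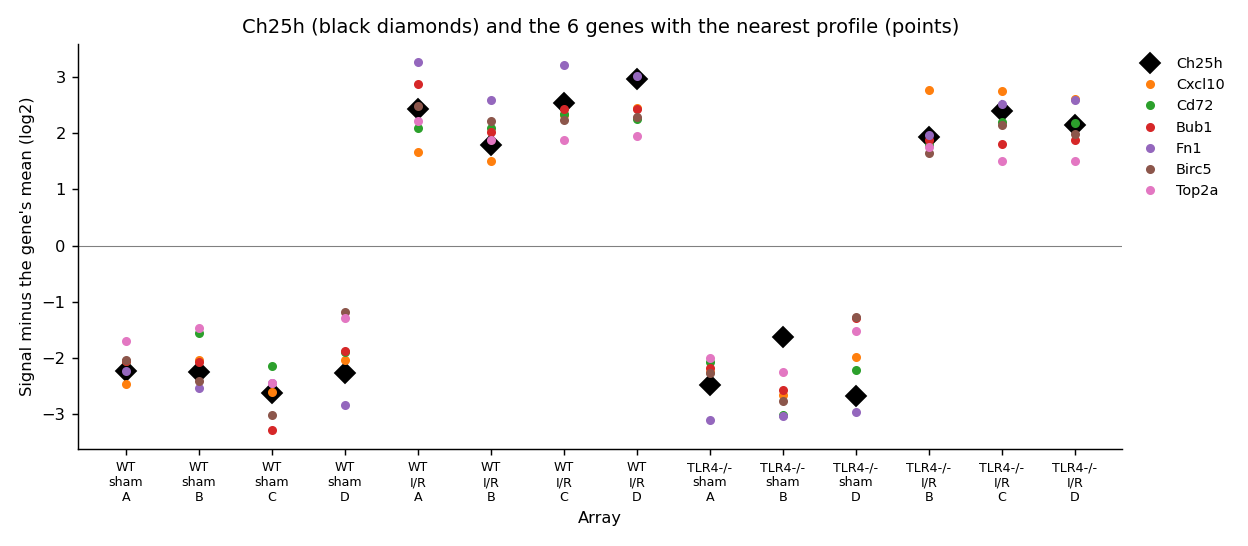
Log2 signal of Ch25h (black diamonds) and of its 6 nearest genes (coloured points) on each array, after each gene's mean over the 14 arrays was subtracted. Every gene is below 0 on all sham arrays and above 0 on all I/R arrays, and Cxcl10 (orange) is the highest point on the TLR4-/- I/R arrays B, C and D.

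The genes nearest to Gpr183, whose own values spread by 0.27, were B4galt4, a galactosyltransferase gene (0.09), Ctns, which encodes the lysosomal cystine exporter (0.10), and Hexdc, a hexosaminidase gene (0.10). B4galt4 differed after I/R by -0.53 in both genotypes on the log2 scale, given as a description since likeness chose it. Those nearest to Cyp27a1, with a spread of 0.33, were the phosphatase gene Ptpn18 (0.12), Fam120b (0.13) and the lysosomal transporter gene Slc46a3 (0.13), and Fam120b, likewise chosen, differed by -0.54 in wild type and -0.60 in TLR4-/-. For Hsd3b7 (spread 0.17) the nearest were Fa2h (0.10), Ndp (0.10) and Repin1 (0.10). For Cyp7b1 (spread 0.19) they were BC048671 (0.10), Atp6ap1l (0.10) and Brox (0.10), which says little for a gene at background.

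The genes around the pathway were read from 7 lists with 111 genes, of which 98 had a row. In wild type 9 of the 98 rose and 7 fell (16.3% called, against 9.78% of all genes), with a median change of 0.02 against -0.06 over all genes. In TLR4-/- 5 rose and 4 fell (9.18%, near the 8.17% of all genes), with a median of -0.01 against -0.03. None of the 98 was called between the genotypes or for the difference between the changes.

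Other enzymes of oxysterols and bile acids showed no called change. Of 16 measured, 0 rose and 0 fell in either genotype, with a median of 0.03 in wild type and -0.02 in TLR4-/-, and 9 were not above background after sham in either genotype. They included Cyp46a1, the main cholesterol hydroxylase of neurons (-0.03 in wild type, limma adjusted p = 0.946), and Hsd11b1, which acts on hydroxysteroids and oxysterols (0.05, limma adjusted p = 0.871, at background).

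Of 19 genes of cholesterol ester turnover, trafficking and oxysterol binding, 2 rose and 0 fell in wild type (median -0.04), and 1 rose and 0 fell in TLR4-/- (median -0.02). Nceh1, whose product cleaves cholesterol esters in macrophages, rose 2.84-fold in wild type (log2 difference 1.51, SE 0.20, limma adjusted p = 7.12e-05) and 2.66-fold in TLR4-/- (1.41, SE 0.23, limma adjusted p = 0.000824). Stard4, a sterol carrier gene, rose 1.32-fold in wild type (limma adjusted p = 0.0225), a call that was lost when I/R array A or D or sham array C or D was left out (adjusted p between 0.0537 and 0.0721). Osbp, which encodes an oxysterol-binding protein of the Golgi, changed by -0.04 in wild type (limma adjusted p = 0.838).

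SREBP and LXR genes, which the product of Ch25h acts upon, were mixed. None of the 6 measured SREBP control genes was called, with medians of 0.02 in wild type and -0.10 in TLR4-/-; Insig1, which retains SREBP, changed by 0.20 in wild type (limma adjusted p = 0.538) and Srebf2 by -0.02 (limma adjusted p = 0.914). Of 14 SREBP2 targets 3 rose and 1 fell in wild type (median 0.28), and 0 were called in TLR4-/- (median 0.32, the higher of the medians). The 3 were the squalene epoxidase gene Sqle (1.54-fold), the mevalonate pathway gene Pmvk (1.51-fold) and the lanosterol demethylase gene Cyp51 (1.43-fold), while the lanosterol synthase gene Lss fell by 0.46 on the log2 scale. The call of Cyp51 ended without wild-type I/R array B, C or D or sham array C (adjusted p between 0.0508 and 0.0597). That of Lss was lost when array B or D after I/R or array B after sham was left out, and with centred arrays (adjusted p between 0.0514 and 0.0810).

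Among 16 LXR receptors and targets 2 rose and 2 fell in wild type (median 0.04), and 2 rose and 1 fell in TLR4-/- (median 0.00). The lipoprotein lipase gene Lpl rose 7.88-fold in wild type (limma adjusted p = 5.18e-09) and 5.41-fold in TLR4-/- (limma adjusted p = 4.90e-07). Apoe, the apolipoprotein of brain lipid transport, rose 1.47-fold (limma adjusted p = 0.0233) and 1.54-fold (limma adjusted p = 0.0344), and Mylip, which marks the LDL receptor for breakdown, fell by 0.50 and 0.55 on the log2 scale (limma adjusted p = 0.00266 and 0.00485). The other fall in wild type was that of Rxra, the partner of LXR, by 0.47 (limma adjusted p = 0.0410). The cholesterol exporter genes Abca1 and Abcg1, which LXR also drives, changed by 0.05 (limma adjusted p = 0.865) and 0.11 (limma adjusted p = 0.720) in wild type.

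The Apoe call was lost in wild type when array C after I/R, or array A, B or C after sham, was left out, with an adjusted p from 0.0527 to 0.0850, and in TLR4-/- under 7 of 14 alternatives, among them the loss of any I/R array or of sham array A or D (adjusted p between 0.0665 and 0.161). The Rxra call ended under 9 of 16, among them the loss of I/R array B, C or D or of sham array A or B (adjusted p between 0.0551 and 0.136).

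A further list held genes of G protein-coupled receptor signalling, which were not shown here to act after Gpr183. Of 9 measured, 0 rose and 2 fell in each genotype, with medians of -0.03 in wild type and -0.08 in TLR4-/-. Rgs2, which switches G proteins off, fell by 0.69 on the log2 scale in wild type (limma adjusted p = 0.000226) and by 0.60 in TLR4-/- (limma adjusted p = 0.00399). The beta-arrestin gene Arrb2 fell by 0.44 in wild type (limma adjusted p = 0.0410), a call lost under 9 of 16 alternatives, among them the loss of any I/R array or of sham array A, B or D (adjusted p between 0.0540 and 0.130). Arrb1 fell by 0.67 in TLR4-/- (limma adjusted p = 0.00516). Gnai2, the main inhibitory G protein of immune cells, changed by -0.03 in wild type (limma adjusted p = 0.911).

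Among 18 measured regulators of Ch25h 2 rose and 2 fell in wild type (median -0.05), and 2 rose and 1 fell in TLR4-/- (median -0.03). The interferon regulators Irf7 and Stat2 rose in both: Irf7 3.78-fold in wild type (limma adjusted p = 5.48e-05) and 6.45-fold in TLR4-/- (limma adjusted p = 9.81e-06), and Stat2 2.08-fold and 2.74-fold (limma adjusted p = 0.00230 and 0.000646). The receptor gene Ifngr1 fell by 0.47 and 0.56 on the log2 scale (limma adjusted p = 0.00803 and 0.00851), in TLR4-/- no longer called (adjusted p = 0.0509) when array C after I/R was left out. Tlr4 was the other fall in wild type (-0.48, limma adjusted p = 0.0485), lost under 8 of 16 alternatives, among them those that left out array A, C or D after I/R or array A, B or C after sham, with an adjusted p from 0.0531 to 0.138. Atf3, a repressor of Ch25h of the family that binds CRE letters such as those printed in capitals above, changed by 0.22 in wild type (limma adjusted p = 0.694) and by -0.11 in TLR4-/- (limma adjusted p = 0.905).

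**Figure D4:**
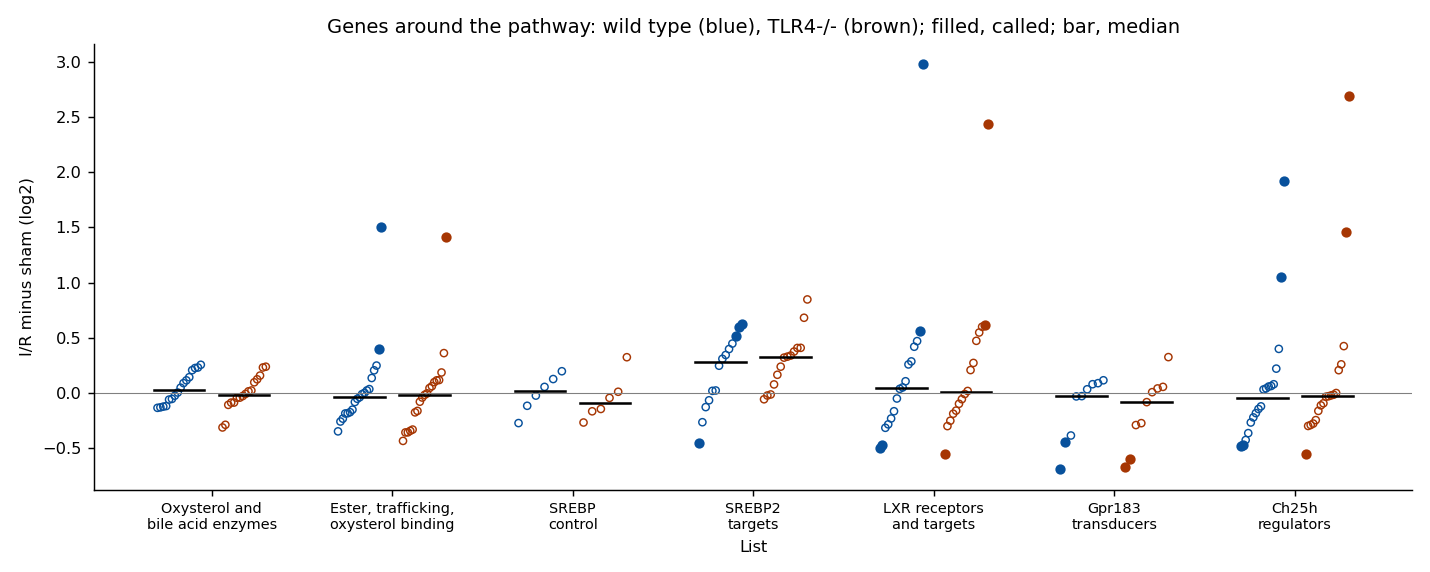
Log2 difference of I/R minus sham for each measured gene of the 7 lists around the pathway, in wild type (blue) and TLR4-/- (brown), with filled points for genes called by limma and bars for list medians. The filled points are few and stand at both ends of the lists, led by Lpl (2.98 in wild type) and Irf7 (2.69 in TLR4-/-), and the list of oxysterol and bile acid enzymes has none.

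Some genes listed as markers of other cells moved on the same arrays. Of 8 measured monocyte markers 7 rose in wild type and 5 in TLR4-/-, with 0 lower. Of all genes, 6.15% and 5.04% were called higher. Their list mean per array went from between 4.71 and 4.97 after sham to between 6.79 and 7.38 after I/R in wild type, and from between 4.57 and 4.73 to between 6.76 and 6.85 in TLR4-/-. Fn1, one of the 6 nearest genes to Ch25h, is on this list. Ccr2, the receptor that defines classical monocytes, had means of 5.94 after sham and 6.34 after I/R in wild type. In TLR4-/- they were 5.77 and 5.55. Ccr2 was called in neither wild type (limma adjusted p = 0.0763) nor TLR4-/- (limma adjusted p = 0.501). Chil3, 1 of the 7, had group means at background throughout. Which cells carried these genes, and the part of monocytes in the rise of Ch25h, were not tested.

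Some of the microglial markers fell, as Gpr183 and Cyp27a1 did. Of 11 measured, 7 were called lower in wild type and 5 in TLR4-/-, against 3.63% and 3.13% of all genes. Their medians were -0.39 and -0.34, and the transcription factor gene Sall1 changed by -0.64 and -0.73. Not called in either genotype were Fcrls (-0.16 and -0.14), Itgam (-0.07 and -0.07), Olfml3 (-0.06 and -0.31) and Aif1 (0.11 and 0.25). The calls of Cx3cr1 and Gpr34 in TLR4-/- were each lost under 8 of 14 alternatives, among them leaving out array C or D after I/R or array A, B or D after sham. In wild type that of P2ry12 was lost under 5 of 16 (array A, C or D after I/R or array C after sham left out, or arrays centred) and that of Csf1r under 1 (array D after I/R left out). In sorted cells measured in bulk, fewer cells of a type and less RNA per cell cannot be told apart. B cells and dendritic cells are known for Gpr183. Of 6 measured B cell markers 0 were called, and the list mean was between 4.45 and 4.65 on all arrays. Cd79a, Ms4a1, Ebf1 and Blk were not above background in any group, while Cd79b had group means of 8.06 to 8.37 and Pax5 of 5.13 to 5.26. Of 9 dendritic cell markers 7 were above background in both wild-type groups and 6 in both TLR4-/- groups, among them Batf3 with group means of 6.58 to 6.98. Cd209a fell by 1.33 in wild type, and 0 were called in TLR4-/-. That list mean was between 5.11 and 5.30 after sham and between 4.75 and 5.05 after I/R in wild type, and between 5.18 and 5.28 and between 4.90 and 5.14 in TLR4-/-, with Xcr1 and Clec9a at background, and its part in the fall of Gpr183 was not tested.

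Of 8 markers of border-associated macrophages, Folr2 rose in wild type and Cd209f fell in TLR4-/-, calls lost under 3 of 16 alternatives (array C or D after I/R or array B after sham left out) and 8 of 14 (among them array B or D after I/R or array A or D after sham left out). Their list mean was between 7.32 and 7.74 after sham and between 7.30 and 7.95 after I/R in wild type, and between 6.63 and 7.47 and between 6.82 and 7.29 in TLR4-/-. Of 10 neutrophil markers Cxcr2 rose in wild type, at background and lost under 7 of 15 alternatives, among them leaving out array A, C or D after I/R or array B, C or D after sham. None of the 10 was called in TLR4-/-. None of 8 markers of T and NK cells, 5 of oligodendrocytes or 7 of neurons was called in either genotype. The astrocyte marker Slc1a3 fell in both genotypes (-0.72 and -0.75, 1 of 7 called in each). Among 7 endothelial and pericyte markers Pecam1 fell in both (-0.93 and -1.09) and Cdh5 rose in wild type (0.67).

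**Figure D5:**
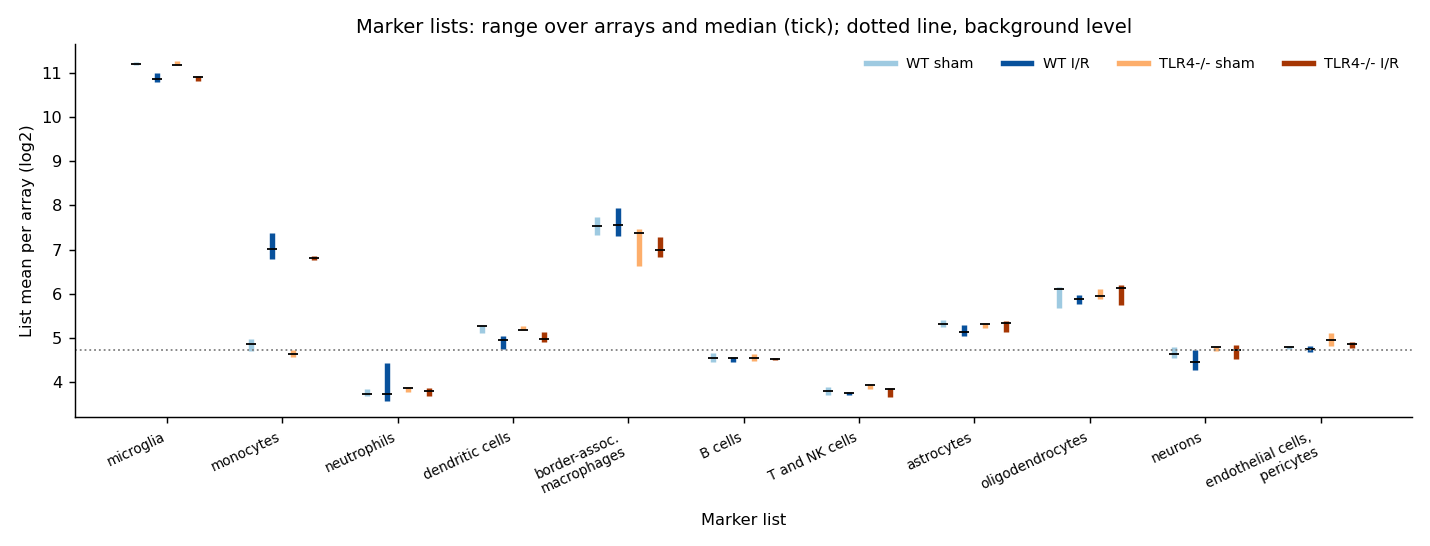
Mean log2 level of each marker list per array, as the range over the arrays of a group (bar) with its median (tick) for the 4 groups, and a dotted line at the background level of 4.73. Monocyte markers rise from between 4.57 and 4.97 after sham to between 6.76 and 7.38 after I/R, microglial markers stay above 10.8, and the lists of neutrophils, B cells and T and NK cells lie below the line.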

How the data were processed

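RNA of 14 samples of sorted microglia was hybridised to Affymetrix Mouse Gene 1.0 ST arrays. The authors deposited log2 values. The tools named in the submitters' processing notes are RMA and the oligo package, with no version. RMA evens out shifts shared by most genes and gives no detection call, so the 95th percentile of 1027 olfactory receptor genes (4.73) served as the background level. Array medians lay between 4.93 and 5.12. Precision is limited by how many arrays each group has.

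Of 35556 rows, 21789 had 1 symbol in the platform annotation, 1621 several and 12146 none here. Symbols were updated by gene ID through RefSeq (GRCm38.p6, 21698 rows matched), and the row with the highest mean stood for a gene. Groups follow the titles, in which the I/R samples read IPC, a term the labels do not explain. Their treatment label is ischaemia/reperfusion. A model of 4 group means was fitted to all arrays with lmFit and eBayes (limma 3.58.1, R 4.3.3), with Benjamini-Hochberg adjustment over all genes and calls at an adjusted p under 0.05. The code was tested on simulated data.

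The 5 genes and all lists were chosen with earlier results of these data known. Named were the 5 genes, their nearest genes by root mean square difference (6 for Ch25h, 3 for each other gene), up to 4 called genes with the smallest p per list and comparison, and some uncalled list genes chosen after their values were seen. Promoter windows came from RefSeq, with none used for Cyp7b1, and 1 further motif that was searched is not reported here. Alternatives left out each array, fitted only the compared groups, centred arrays, repeated quantile normalization, used trend and robust settings or array weights, left out dim genes, averaged rows and took the replicate letter as a block.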

Additional observations from a re-analysis of the deposited data

Results flagged for a closer look

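In 1 of 10 groups of 4 arrays examined (5 genes in the 2 wild-type groups), a single array stood far from the others. Wild-type sham array C gave the lowest Ch25h value of its group, a log2 signal of 3.34, while the other arrays lay between 3.69 and 3.73. About 1 in 20 groups is marked in this way by chance. All 4 values were below the background level, and the I/R change of Ch25h without this array was 4.68 in place of 4.78.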

How the results depend on the processing

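Of 400 recalculated values for the 5 genes, 377 counted as unchanged, among them all called falls of Gpr183 in wild type and of Cyp27a1 in both genotypes. Most of the 400 had no call to lose, so this count says little about how firm the calls are. The 6 calls that were lost were all of Gpr183 in TLR4-/-, under 6 of 14 alternatives. For tested values, unchanged means the same direction and the same side of the threshold. For the I/R changes of Ch25h, which had no test, it means the same direction and a shift under the residual SD of 0.393. The fall of Gpr183 in TLR4-/- kept its sign but was no longer called with only the compared groups (-0.464), with centred arrays (-0.418) and with the replicate block (-0.455, adjusted p = 0.0592), and ran from -0.554 to -0.369 as each array was left out. The changes of sign were all among uncalled values near 0. Hsd3b7 after sham, TLR4-/- minus wild type, was 0.018 with quantile normalization repeated. Left-out arrays gave ranges across 0 for the difference of the changes, from -0.113 to 0.192 for Hsd3b7, from -0.127 to 0.058 for Gpr183 and from -0.023 to 0.117 for Cyp27a1. They did so between the genotypes after sham, from -0.241 to 0.285 for Ch25h, from -0.178 to 0.059 for Cyp7b1 and from -0.101 to 0.029 for Hsd3b7, and after I/R for Hsd3b7, from -0.206 to 0.099. The cause was not tested.

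Left-out arrays moved the genes called in TLR4-/- from 1628 to between 970 (without sham array A) and 1497, with 1071 without I/R array C, for the difference to between 0 and 1, between the genotypes after sham to between 0 and 10 and after I/R to between 0 and 3. After sham the count of 1 became 0 with only the compared groups and 2 with trend and robust settings, array weights or the block. After I/R the count of 4 became 0 with only the compared groups or the block, 1 with quantile normalization repeated or dim genes left out and 7 with array weights. With the block, 2037 genes were called in wild type and 1522 in TLR4-/-.

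Whether the letters pair the arrays was left undecided. The deviations of 18 same-letter pairs from different groups correlated between -0.099 and 0.281 (median 0.041), with 3 over 0.1. Pairs of other letters ran from -0.260 to 0.237 (median -0.005), and 7 of 14 arrays correlated best with their own letter. Most arrays of the other groups carry other letters, and the count to be had by an even draw was not worked out. A weak pairing was not tested beyond the fit with the letter as a block. Leaving out dim genes removed Cyp7b1, which has no value there. With signals at background, a sham level of Ch25h and any level of Cyp7b1 are bounded only from above.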
